A study of Mus musculus with 28 samples.

Results

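The clustered protocadherin genes lie side by side on mouse chromosome 18 in an alpha, a beta and a gamma cluster. They were taken as all protein-coding genes on that chromosome whose symbol starts with Pcdha, Pcdhb, Pcdhga, Pcdhgb or Pcdhgc in the GENCODE M1 annotation of mm9, which gave 24 of 22380 protein-coding genes. That annotation folds the alpha genes into 2 entries and the gamma genes into 1, beside 21 beta genes, so the members were followed by their first exons. There were 40 distinct first exons: 10 alpha, 21 beta and 9 gamma. RefSeq lists 14, 22 and 21 protein-coding genes in the clusters, and those with no first exon of their own in GENCODE M1 were not counted one by one. These were Pcdha5 to Pcdha8, Pcdhb20, Pcdhga1, Pcdhga2, Pcdhga4 to Pcdhga7, Pcdhga10, Pcdhgb1, Pcdhgb2, Pcdhgb4, Pcdhgb5 and Pcdhgb7. What is said below of gamma A and B exons thus rests on 6 first exons and leaves out many genes of that kind. As annotated, the alpha cluster spans 37089939 to 37347311, the beta cluster 37424652 to 37681073 and the gamma cluster 37833989 to 38001527 on chromosome 18. All members are on the plus strand, with 912 kb from the first to the last. The gamma cluster is taken here from Pcdhga3 on. RefSeq places Pcdhga1 and Pcdhga2 before it, between Pcdhb22 and Pcdhga3.

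The data are lists of regions called from chromatin immunoprecipitation with sequencing in IDG-SW3 cells. This mouse bone line grows as osteoblast-like cells at 33 °C with interferon gamma, and matures toward osteocytes at 37 °C without it, in medium with ascorbic acid and beta-glycerol phosphate. Histone lists came from cells at day 35 of differentiation and from cells at day 3, with 9 marks and 1 library per mark and day. Peaks of VDR, the receptor for vitamin D, and of RXR, the retinoid receptor it pairs with, came from day 35 cells given 100 nM 1,25(OH)2D3 (here 1,25D3) for 3 h and from cells given vehicle, with 2 biological replicates per arm. All groups share 1 cell line, and the differentiation day carries with it the change of temperature, of medium and of interferon gamma.

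Clustered protocadherins are cell-surface adhesion proteins best known from neurons, where each cell expresses a small set of them and uses that set to tell its own branches from those of other cells. In the alpha and gamma clusters each variable first exon has its own promoter and is spliced to a few exons at the end of the cluster that all isoforms share; beta genes have a single coding exon and no shared exons. The C-type first exons (Pcdhac1, Pcdhac2, Pcdhgc3, Pcdhgc4 and Pcdhgc5), at the ends of the alpha and gamma clusters, are known in neurons to be chosen differently from the rest, which are switched on in a random-like way and otherwise carry DNA methylation and H3K9me3. H3K4me2, H3K4me3, H3K27Ac, H3K9Ac and H4K5Ac are usual at active promoters and enhancers, H3K4me1 at enhancers, H3K36me3 and H4K20me1 along transcribed genes, and H3K9me3 in silenced chromatin.

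Histone lists held between 9360 and 100123 regions. With 1 library per mark and day no difference between the days has a replicate check, and no test of it is given. The score of a region is the authors' own and was used only to place a region within its own list. In these bulk cultures, fewer cells with a mark and less of the mark per cell cannot be told apart, nor can 2 marks on the same chromosome copy and on different copies. The label of bone cells was checked on first exons of marker genes: H3K27Ac was called on 12 of 13 osteoblast and osteocyte genes at day 35 and on 12 at day 3 (Sost had no mark at either day), on 1 of 9 neural genes at each day (Tubb3), and on 0 of 4 haematopoietic genes. It was on 0 of 3 endothelial genes at day 35 and 1 at day 3 (Kdr), 1 of 4 adipocyte genes at each day (Fabp4 at day 35, Pparg at day 3), 0 of 3 myogenic genes and 1 of 3 chondrocyte genes at each day (Sox9). Of all these marker genes, Ibsp, Nefl, Kdr, Pparg, Fabp4, Plin1, Acan and Col2a1 differed between the days in at least 2 marks on the first exon.

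Marks of active promoters were called on fewer clustered protocadherin first exons than on genes at large, and H3K36me3 and H3K9me3 on more. An exon counted as marked when a region overlapped it by at least 1 bp, and the same count over 1 first exon of each of 21410 autosomal protein-coding genes is the background. H3K4me3 was on 1 of 40 first exons at day 35 (background 37.2%) and on 2 at day 3 (background 43.4%). H3K27Ac was on 10 at day 35 (background 54%) and on 8 at day 3 (55.6%), H3K9Ac on 13 (55.1%) and 10 (54.8%), and H4K5Ac on 7 (55.9%) and 5 (54.6%). H3K4me1 was on 7 at day 35 (59.7%) and on 4 at day 3 (60.3%), and H4K20me1 on 3 (20.1%) and 3 (23.8%). Some exons shared a region: the distinct regions at day 35 and day 3 were 5 and 2 for H3K4me1 and 1 and 1 for H4K20me1. They were 9 and 7 for H3K27Ac and 7 and 4 for H4K5Ac. H3K4me2 was on 17 at day 35 (59.5%) and on 6 at day 3 (55.9%).

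H3K36me3 was on 12 of 40 first exons at day 35 (background 4.96%), in 10 distinct regions, and on 5 at day 3 (5.8%), in 3 distinct regions. H3K9me3 was on 9 at day 35 (2.62%), in 5 distinct regions, and on 13 at day 3 (6.2%), in 7 distinct regions. These first exons are long, with a median of 2692.5 bp and a range of 2319 to 7131 bp, against a median of 223 bp over the background genes, so a long exon can meet more regions. In equal windows of 1 kb on each side of the start, H3K9me3 was at 10 of 40 members at day 35 (background 4.68%) and at 11 at day 3 (9.31%), and H3K36me3 at 9 (8.37%) and 4 (11.5%). Measured this way, H3K9me3 was still more frequent at members than at genes at large, and H3K36me3 at day 3 was close to the background.

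**Figure D1:**
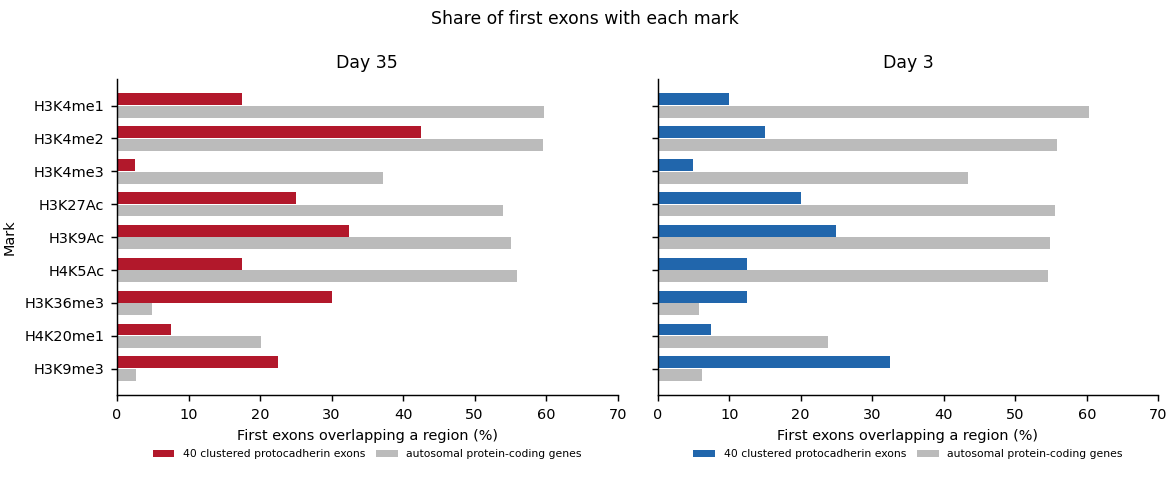
Percent of first exons that overlap a called region (horizontal axis) for each of 9 marks (vertical axis), at day 35 (left) and at day 3 (right). Coloured bars stand for the 40 clustered protocadherin first exons and grey bars for 21410 autosomal protein-coding genes. The 6 marks of active chromatin are lower at the members than over all genes at both days, and H3K36me3 and H3K9me3 are higher.

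The 40 first exons differed widely among themselves, with most marks toward the 3′ side of the locus. No mark was called at either day on 17 of them, which were 8 of the 10 alpha exons and 9 of the 21 beta exons (background 29.9% of genes). These 17 exons hold less unique sequence than the marked ones, with values given further on. None of the 9 gamma exons was without a mark at either day. Without any mark were 17 exons at day 35 (background 31.9%) and 23 at day 3 (33.4%). Counting the 6 marks of active chromatin (H3K4me1, H3K4me2, H3K4me3, H3K27Ac, H3K9Ac and H4K5Ac), 11 exons had more of them at day 35 than at day 3 (background 8.76%), 3 had fewer (13.5%), and 26 had the same number. H3K4me2 takes part in this count, and its list is longer at day 35.

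**Figure D2:**
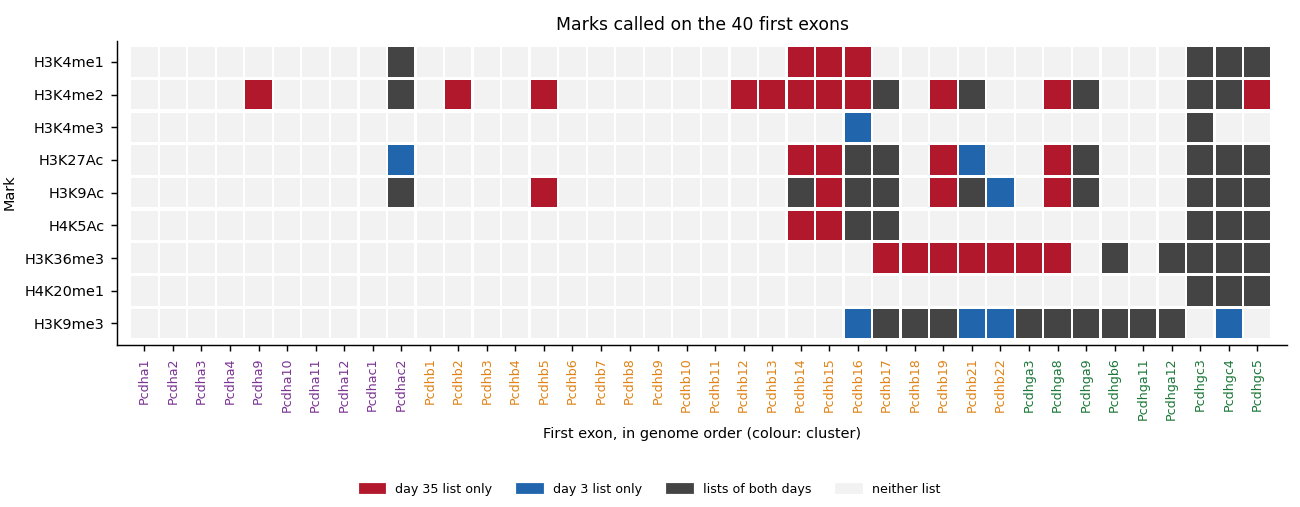
Marks called on each of the 40 first exons, in genome order from left to right, with names coloured by cluster and 1 row per mark. Red cells are marks in the day 35 list only, blue in the day 3 list only, dark grey in both and light grey in neither. Of the 8 variable alpha exons, 7 are blank, marks gather from Pcdhb14 onward, and the 3 gamma C-type exons carry most marks at both days.

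**Figure D3:**
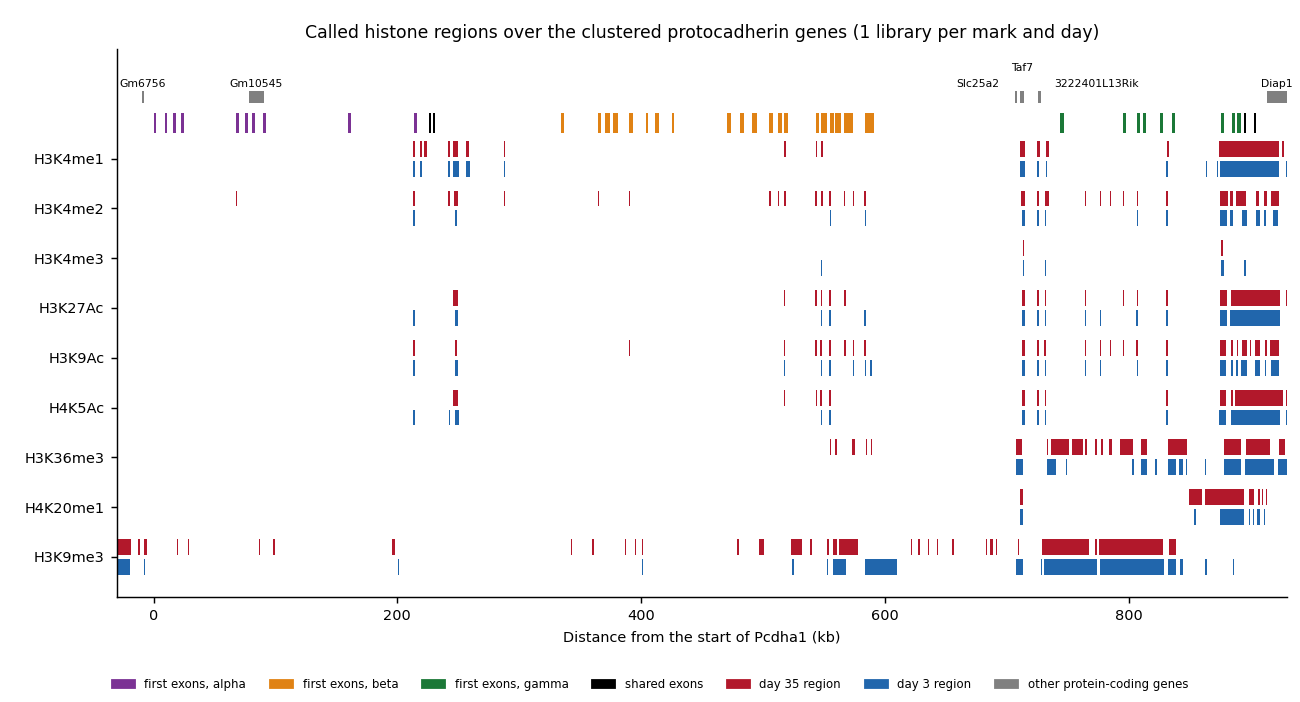
Called regions of 9 marks (rows) against distance from the start of Pcdha1 in kb, with day 35 (red) above day 3 (blue), 1 library per mark and day. First exons, shared exons and other protein-coding genes are drawn on top. The alpha cluster and the first beta genes are almost empty, H3K9me3 fills the gamma A and B stretch at both days, and the 3′ end of the gamma cluster is covered by most marks.

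The variable alpha exons, which encode the extracellular adhesion domains of the alpha isoforms, were nearly bare. Of 8 (Pcdha1 to Pcdha4 and Pcdha9 to Pcdha12), 1 carried a region: Pcdha9 had H3K4me2 over 16.6% of its exon at day 35 and none at day 3. Over the 92.3 kb from Pcdha1 to Pcdha12, H3K27Ac, H3K9Ac, H4K5Ac, H3K4me1, H3K4me3, H3K36me3 and H4K20me1 covered no base at either day. H3K9me3 covered 1.62% at day 35 and 0% at day 3, against 2.06% and 1.87% of the autosomes, so this stretch had no more H3K9me3 than the rest of the genome. The first C-type exon, Pcdhac1, was unmarked at both days as well.

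Pcdhac2, the C-type exon nearest to the alpha shared exons, was the only alpha first exon marked at both days. H3K4me2 covered 35.1% of it at day 35 and 36.5% at day 3, H3K9Ac 24.6% and 34.6%, and H3K4me1 31.0% and 42.5%. H3K27Ac was absent from it at day 35 and covered 25.7% at day 3. Its H3K4me2 region was among the upper 22.5% of the day 35 list by score and among the upper 50.7% of the day 3 list. H3K4me3 was not called there at either day.

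Beyond Pcdhac2, 5 active marks were called together at both days in a stretch that touched no first exon. In the last intron between shared exons, H3K27Ac was called over 3.62 kb at day 35 and 2.93 kb at day 3, about 246 kb from the start of Pcdha1, with H3K9Ac over 2.12 kb and 2.27 kb and H3K4me1 over 4.04 kb and 4.49 kb. H3K4me2 there was 3.41 kb wide at day 35 and 1.19 kb wide at day 3. Its H3K27Ac region ranked in the upper 23.9% of the day 35 list and the upper 31.5% of the day 3 list. Smaller regions lay around it. H3K4me1 was called 219 kb from the start of Pcdha1 (0.5 kb wide at day 35, 1.81 kb at day 3), at 242 kb (0.64 kb and 0.73 kb) and across the end of the cluster (2.79 kb and 3.26 kb), and at day 35 also at 222 kb (2.33 kb). At 242 kb H3K4me2 was called at day 35 (0.632 kb) and H4K5Ac at day 3 (0.5 kb). Past the end of the cluster, a further H3K4me1 region began 30.0 kb (day 35) and 29.9 kb (day 3) downstream, and H3K4me2 lay on the same place at day 35 (0.938 kb wide) and was not called there at day 3. Enhancers of the alpha cluster have been described in the last intron and downstream of the cluster in neural cells; whether these regions are those elements was not tested.

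The beta genes fell into a sparse 5′ part and a marked 3′ part. From Pcdhb1 to Pcdhb12, no exon carried any mark at day 3, and at day 35 H3K4me2 lay on Pcdhb2, Pcdhb5 and Pcdhb12 and H3K9Ac on Pcdhb5. These were small regions: the one on Pcdhb12 was 0.5 kb wide and in the lowest part of its list (rank 60683 of 66645 by score). Over the 174 kb from Pcdhb1 to Pcdhb12, H3K27Ac, H4K5Ac, H3K4me1 and H3K36me3 covered no base at either day.

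From Pcdhb13 to Pcdhb22, every counted exon carried at least 1 mark at day 35. H3K27Ac was on 5 exons at day 35 (Pcdhb14, Pcdhb15, Pcdhb16, Pcdhb17 and Pcdhb19), against 3 at day 3 (Pcdhb16, Pcdhb17 and Pcdhb21). An active mark was on 10 of the 21 beta exons at day 35 and on 5 at day 3; 8 had more active marks at day 35 and 2 had fewer. Pcdhb15 had the largest difference in number of active marks among the beta exons. Its exon had H3K4me1, H3K4me2, H3K27Ac, H3K9Ac and H4K5Ac at day 35, in regions 0.5 to 1.15 kb wide, and no mark at all at day 3. By score these regions ranked 94903 of 100123 (H3K4me1), 61335 of 72819 (H4K5Ac), 45893 of 67302 (H3K27Ac) and 28415 of 56355 (H3K9Ac). Only H3K4me2 (27835 of 66645) was in the higher-scoring 50% of its list. Pcdhb14 had the same 5 marks at day 35 and H3K9Ac alone, 0.633 kb wide, at day 3.

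Pcdhb16 was acetylated at both days. H3K9Ac was 1.46 kb wide at day 35 and 1.03 kb wide at day 3, H3K27Ac 1.27 kb and 1.04 kb, and H4K5Ac 1.31 kb and 0.964 kb. It also had H3K4me1 (1.61 kb) and H3K4me2 (1.92 kb) at day 35 and neither at day 3. H3K4me3 was called on it at day 3 only, in a region of 0.686 kb ranked 9830 of 11283, the only H3K4me3 on a beta exon at either day. A 0.5 kb H3K9me3 region touched its 3′ end at day 3 and not at day 35.

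Pcdhb17 carried H3K4me2, H3K27Ac, H3K9Ac and H4K5Ac near its start and H3K9me3 toward its end at both days. H3K4me2 covered 38.1% of its exon at day 35 and 15.3% at day 3; the H3K9me3 share was 27.8% and 23.7%. Pcdhb19 had H3K4me2, H3K27Ac and H3K9Ac at day 35 and none of them at day 3, within an exon that H3K9me3 covered whole at day 35 (7131 bp) and for 19.9% at day 3. Pcdhb18 lay between them with no active mark at either day, and H3K9me3 covered 59.2% of it at day 35 and 100% at day 3.

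The last beta genes, Pcdhb21 and Pcdhb22, had H3K9me3 at day 3 and not at day 35. A region 26.1 kb wide, among the upper 0.41% of the day 3 list by score, covered 96.8% of Pcdhb21 and 100% of Pcdhb22 and ran on past the end of the cluster. In the day 35 list no H3K9me3 region touched either exon, while a region 15.7 kb wide (upper 0.814% of that list) lay over Pcdhb19 and the end of Pcdhb18. Pcdhb21 had H3K9Ac at both days (0.821 kb at day 35, 0.933 kb at day 3) and H3K27Ac at day 3 only. Pcdhb22 had H3K9Ac at day 3 only, in a 0.5 kb region. H3K9me3 at day 3 and not at day 35 was thus on 4 first exons (Pcdhb16, Pcdhb21, Pcdhb22 and Pcdhgc4; background 4.43%), and on 0 the other way round (0.855%). In windows of 1 kb on each side of the start, these counts were 3 (background 6.18%) and 2 (1.55%), so the directions were close to even there.

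H3K36me3 was called on 5 beta exons at day 35 and on 0 at day 3. They were Pcdhb17, Pcdhb18, Pcdhb19, Pcdhb21 and Pcdhb22, consecutive among the counted exons. Pcdhb20, between Pcdhb19 and Pcdhb21, was not counted. The regions were 0.625 to 2.90 kb wide, began after the exon start and had scores in the lower part of the list (ranks 19232 to 24044 of 27961). The 2.90 kb region began 6.16 kb into the Pcdhb19 exon, covered 13.6% of it and ran past its end. About 574 kb from the start of Pcdha1, past that end, H3K9Ac was called at both days and H3K4me2 at day 35 only. With Pcdhga3 and Pcdhga8, H3K36me3 was on 7 first exons at day 35 and not at day 3 (background 0.986%) and on 0 the other way round (1.83%). In windows of 1 kb on each side of the start, these counts were 5 (background 1.44%) and 0 (4.59%). The day 35 list was the shorter of the pair, with 27961 regions against 32560 at day 3. From Pcdhb13 to Pcdhb22, H3K36me3 covered 9.03% of the bases at day 35 and 0% at day 3.

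H3K4me2 showed the same direction over all 3 clusters: 11 first exons had it at day 35 and not at day 3 (background 4.11%), and 0 the other way round (0.462%). The H3K4me2 list was longer at day 35, with 66645 regions down to a score of 6.8, against 45596 regions down to 11.8 at day 3. With both lists limited to the same number of regions by score, 14 exons had it at day 35 and 6 at day 3. The part of depth in this difference was not tested, since the sources used here give no read depth.

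The other active marks differed between the days on few exons. H3K4me1 was on 3 first exons at day 35 and not at day 3 (background 2.78%) and on 0 the other way round (3.43%). For H3K27Ac these counts were 4 (1.72%) and 2 (3.32%), for H3K9Ac 4 (2%) and 1 (1.74%), and for H4K5Ac 2 (3.18%) and 0 (1.9%). H3K4me3 was on 0 at day 35 only (1.03%) and on 1 at day 3 only (7.17%), and H4K20me1 on 0 (3.3%) and 0 (7.02%).

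The promoter marks on beta and gamma A and B exons sat at the exon start. Of 32 regions of H3K4me2, H3K27Ac, H3K9Ac or H4K5Ac on these exons at day 35, 30 spanned the annotated start, with centres 0.0525 to 0.714 kb downstream of it (median 0.275 kb) and a median width of 0.929 kb. At day 3, 11 of 15 spanned it, with a median centre of 0.257 kb and a median width of 0.645 kb. H3K36me3 on beta exons at day 35 was centred farther in, at a median of 1.05 kb, and 0 of those 5 regions spanned the start.

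**Figure D4:**
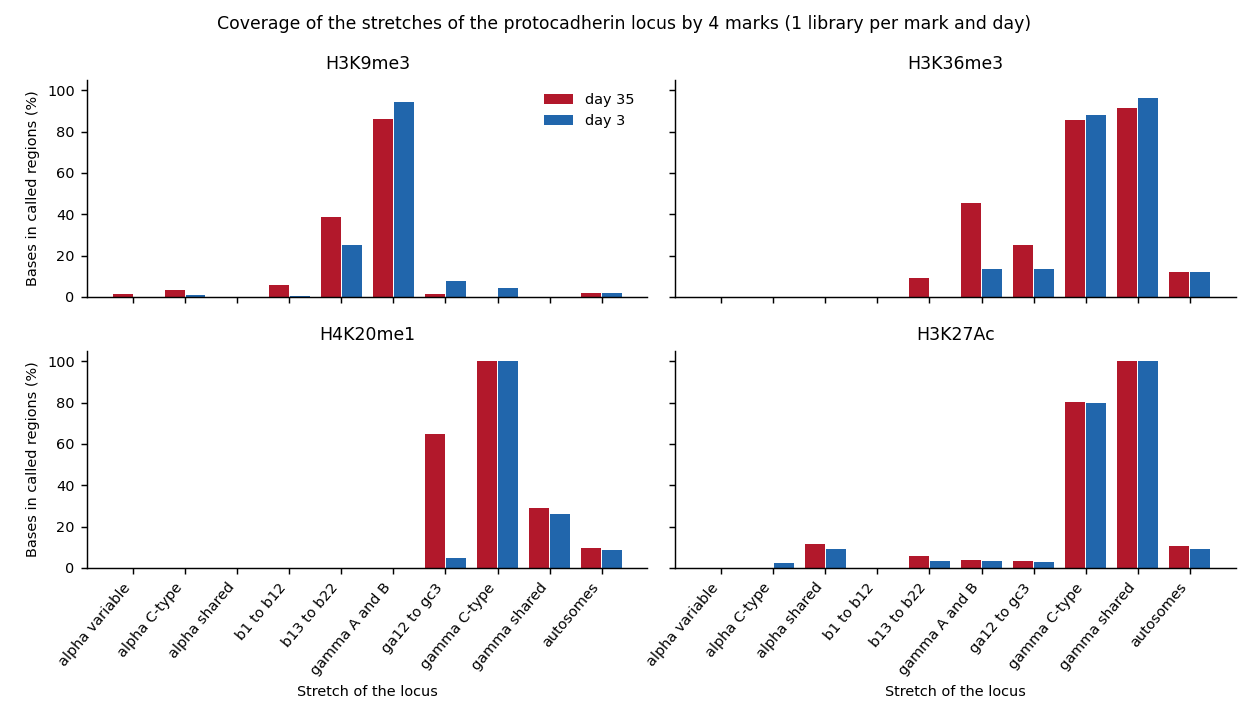
Percent of bases inside called regions (vertical axis) for H3K9me3, H3K36me3, H4K20me1 and H3K27Ac over stretches of the locus in genome order, with the autosomes last. Red bars are day 35 and blue bars day 3, 1 library per mark and day. H3K9me3 peaks over the gamma A and B exons at 86.2% and 94.1%, H3K36me3 there stands at 45.4% and 13.6%, and H4K20me1 between Pcdhga12 and Pcdhgc3 at 65% and 4.83%.

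The gamma A and B exons were the main H3K9me3 domain of the locus. All 6 counted exons (Pcdhga3, Pcdhga8, Pcdhga9, Pcdhgb6, Pcdhga11 and Pcdhga12) were covered over their whole length at both days. The other A and B genes of RefSeq had no first exon to count. H3K9me3 covered 86.2% of the 94.2 kb from Pcdhga3 to Pcdhga12 at day 35 and 94.1% at day 3, against 2.06% and 1.87% of the autosomes and 0.986% and 1.25% of chromosome 18. The domain was made of few wide regions. At day 35, one of 52.6 kb over Pcdhga8, Pcdhga9, Pcdhgb6 and Pcdhga11 (37865609 to 37918213) was the number 6 by width and 15 by score of 45063 regions, and one of 38.7 kb over Pcdhga3 (37818621 to 37857337) was the number 13 by width and 19 by score. At day 3 the matching regions were 52.5 kb wide (37866437 to 37918924; number 2 by width and 12 by score of 33157) and 43.3 kb wide (37820666 to 37864008; number 7 by width and 65 by score). Pcdhga12 lay in a region of its own, 5.21 kb wide at day 35 and 6.72 kb wide at day 3.

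Inside this domain, H3K36me3 covered more at day 35. It covered 45.4% of the gamma A and B stretch at day 35 and 13.6% at day 3, against 11.8% and 12.3% of the autosomes. Pcdhga3 and Pcdhga8 were covered whole at day 35 and not at all at day 3, Pcdhgb6 and Pcdhga12 whole at both days, and Pcdhga9 and Pcdhga11 not at all at either day. Of the bases in H3K9me3 regions here, 51.2% were also in H3K36me3 regions at day 35 and 14.5% at day 3. Over the autosomes the same share ran the other way, 3.62% at day 35 and 23.1% at day 3. In the day 3 H3K9me3 list, more of the bases over the autosomes also lay in H3K27Ac regions, 9.82% against 1.57% at day 35, so the lists of this mark differ beyond the locus.

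Small active regions were set within the H3K9me3 domain or between its regions. Pcdhga9 had H3K4me2, H3K27Ac and H3K9Ac at its start at both days, in regions of 0.628 to 0.81 kb at day 35 and 0.5 to 0.645 kb at day 3. Pcdhga8 had the same marks at day 35 and none of them at day 3. Pcdhga3, Pcdhgb6, Pcdhga11 and Pcdhga12 had no active mark on their first exons. Between Pcdhga3 and Pcdhga8, where RefSeq lists gamma genes that were not counted, further small regions lay on no counted exon. About 764 kb from the start of Pcdha1, H3K27Ac and H3K9Ac were called at both days and H3K4me2 at day 35 only. About 777 kb from it, H3K9Ac was called at both days, H3K4me2 at day 35 only and H3K27Ac at day 3 only. About 785 kb from it, H3K4me2 and H3K9Ac were called at day 35 only. Over all clusters, an acetyl mark and H3K9me3 were both called on 4 first exons at day 35 (Pcdhb17, Pcdhb19, Pcdhga8 and Pcdhga9; background 0.444%) and on 6 at day 3 (Pcdhb16, Pcdhb17, Pcdhb21, Pcdhb22, Pcdhga9 and Pcdhgc4; background 1.99%). The exons are longer than those of the background, and the regions need not share bases. Within 1 kb of the start, both were called at 4 members at day 35 (background 1.05%) and at 4 at day 3 (4.3%). Between Pcdhga11 and Pcdhga12, about 831 kb from the start of Pcdha1, H3K4me1, H3K4me2, H3K27Ac, H3K9Ac and H4K5Ac were called at both days, with H3K27Ac 1.52 kb and 1.49 kb wide. No first exon of GENCODE M1 lies there. RefSeq lists Pcdhgb8, a transcribed pseudogene, between these neighbours. At day 35 these active regions lay outside H3K9me3, in the gap between the regions over Pcdhga11 and over Pcdhga12. At day 3 the H3K9me3 region over Pcdhga12 overlapped part of them.

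**Figure D5:**
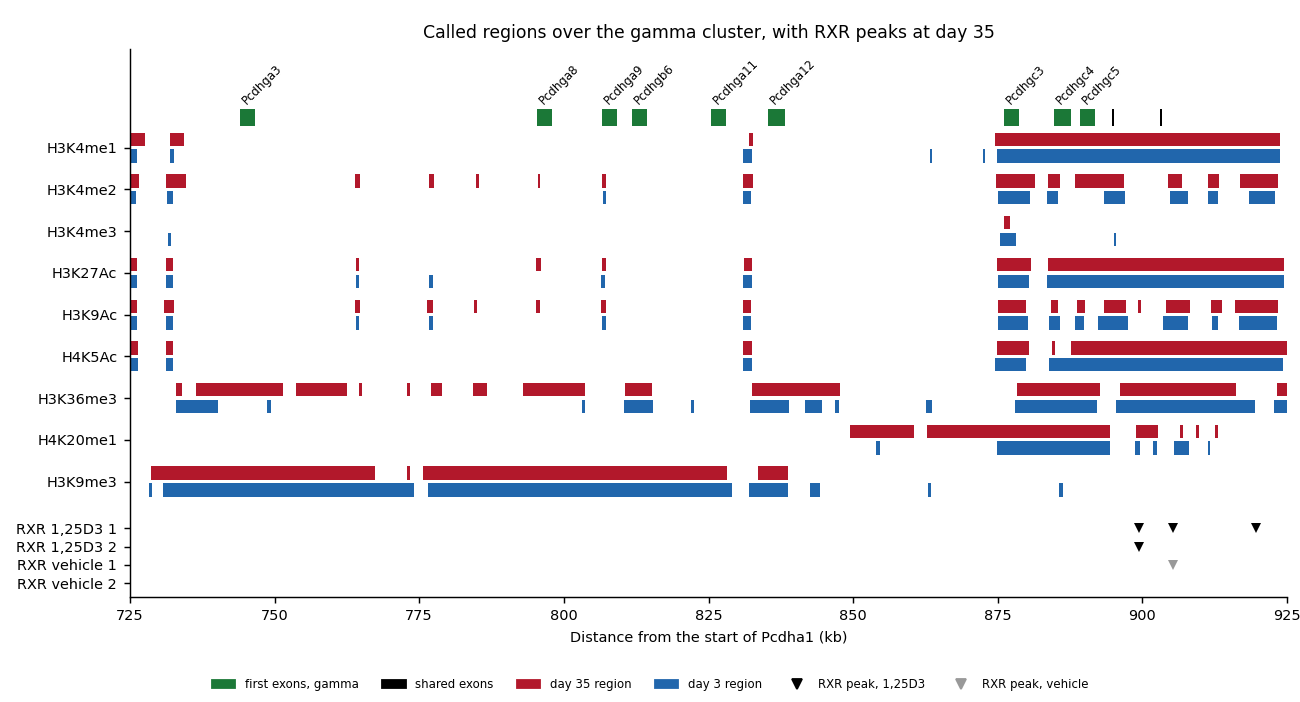
Called regions over the gamma cluster against distance from the start of Pcdha1 in kb, day 35 (red) above day 3 (blue), with RXR peaks at day 35 as triangles, 1 row per replicate with 1,25D3 (black) or vehicle (grey). The wide H3K9me3 regions end near Pcdhga12 at both days, H4K20me1 reaches farther upstream at day 35, and the RXR peaks lie past Pcdhgc5.

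The 3 gamma C-type exons were the active end of the locus. Pcdhgc3 carried all 6 active marks with H3K36me3 and H4K20me1 at both days, and was the only clustered protocadherin exon with H3K4me3 at both days. That H3K4me3 region was 1.11 kb wide at day 35, covering 40.2% of the exon, and 2.63 kb wide at day 3, covering 76.9%; it ranked 3825 of 9360 at day 35 and 1591 of 11283 at day 3. H3K4me1, H3K4me2, H3K27Ac, H3K9Ac, H4K5Ac and H4K20me1 covered 100% of the Pcdhgc3 exon at both days. Its H3K9Ac region was 4.8 kb wide at day 35 and 5.17 kb wide at day 3, in the upper 4.05% and 5.06% of the lists by score.

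Pcdhgc4 had 7 marks at day 35 and 8 at day 3. H3K4me1, H3K27Ac, H3K36me3 and H4K20me1 covered all of its 2905 bp at both days. H3K9Ac covered 19.7% at day 35 and 33.2% at day 3, and H4K5Ac 7.54% and 100%. The eighth mark was a 0.652 kb H3K9me3 region, ranked 20202 of 33157 at day 3, the only H3K9me3 on a C-type exon. Pcdhgc5 was covered whole by H3K4me1, H3K27Ac, H4K5Ac, H3K36me3 and H4K20me1 at both days, and by H3K4me2 at day 35 and not at day 3. Neither Pcdhgc4 nor Pcdhgc5 had H3K4me3 at either day.

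Past these exons, H3K27Ac, H4K5Ac and H3K4me1 ran in single wide regions over the shared gamma exons, which encode the cytoplasmic part of every gamma isoform. One H3K27Ac region covered 40.8 kb at day 35 and 40.9 kb at day 3, from Pcdhgc4 through the shared exons and into the 3′ part of Diap1, a neighbour on the minus strand that encodes an actin-nucleating formin. It stood in the upper 0.458% of the day 35 list by score and the upper 0.5% of the day 3 list. H3K4me1 covered 49.2 kb and 49.0 kb from just before Pcdhgc3, and H4K5Ac 39.2 kb and 40.4 kb. Over the shared-exon stretch H3K27Ac, H4K5Ac and H3K4me1 covered 100% of the bases at both days, and H3K36me3 91.3% and 96.3%. The other active marks covered less of it, in separate regions: H3K9Ac 41.3% at day 35 and 42.3% at day 3, H3K4me2 27.8% and 34.7%, and H3K4me3 0% and 2.97%. Regulatory elements for the beta and gamma genes have been described downstream of the gamma cluster in neural tissue; whether these regions hold them was not tested, and marks there cannot be told apart from marks of Diap1.

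H4K20me1 reached farther upstream at day 35. It covered 100% of the C-type stretch at both days, but 65% of the 37.9 kb between Pcdhga12 and Pcdhgc3 at day 35 and 4.83% at day 3. The region over Pcdhgc3, Pcdhgc4 and Pcdhgc5 was 31.8 kb wide at day 35 and 19.5 kb wide at day 3. The next region upstream was 11.2 kb wide at day 35 and 0.63 kb wide at day 3. Over the autosomes the mark covered 9.73% and 8.59%. No alpha or beta first exon had H4K20me1.

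Across the locus as a whole, H3K9me3 covered 16.5% of the bases at day 35 and 16.6% at day 3, and H3K36me3 11.3% and 6.72%. H3K4me2 covered 5.82% and 2.70%, H3K4me3 0.225% and 0.625%, and H3K27Ac 5.45% and 5.29%. These shares include other genes within the span. Of the 2.05 kb (day 35) and 5.7 kb (day 3) in H3K4me3 regions, 0.946 kb and 1.38 kb lay at the start of Taf7. H3K9me3 covered 40.4 kb of the beta cluster at day 35 and 20.9 kb at day 3 (15.8% and 8.15%). In the gamma cluster from Pcdhga3 on, it covered 81.7 kb and 92.2 kb (48.7% and 55.0%). Over the 153 kb between Pcdhb22 and Pcdhga3, it covered 24.3 kb and 37.5 kb (15.9% and 24.5%). RefSeq lists Pcdhga1 and Pcdhga2 in that stretch, so it is not free of gamma genes. About 731 kb from the start of Pcdha1, within it, H3K27Ac, H3K9Ac and H4K5Ac were called at both days. A 0.5 kb H3K4me3 region lay on the same place at day 3 only. From Pcdhb1 to Pcdhb12, H3K9me3 covered 5.62% at day 35 and 0.639% at day 3, in regions that touched no first exon. Bases in both days' H3K9me3 lists were 86.9% of those in either list in the gamma cluster, 20.5% in the beta cluster and 20.1% over the autosomes.

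The genes that are not protocadherins but lie within the span were marked in different ways. Taf7, a subunit of the general transcription factor TFIID between the beta and gamma clusters, had all 6 active marks and H4K20me1 on its first exon at both days and no H3K9me3. Its neighbour Slc25a2, a mitochondrial ornithine carrier, had H3K36me3 at both days and H3K9me3 at day 3 only. The gene 3222401L13Rik had H3K4me1, H3K4me2 and the 3 acetyl marks at both days and H3K9me3 at day 3 only, and Gm10545, inside the alpha cluster, had no mark. On the left, Hars2 and Zmat2 had all 6 active marks at both days, while Gm6756, just before Pcdha1, had H3K9me3 at both days. On the right, Diap1 had H3K4me2, H3K4me3 and the 3 acetyl marks at its start at both days and H3K4me1 at day 3 only. Hdac3, a histone deacetylase, had all 6 active marks at both days, and Rell2 all of them but H3K4me3.

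The first exons also differ in sequence, which the choice of members did not use. CpG frequency relative to base composition had a median of 0.678 in the 8 variable alpha exons (0.604 to 0.728), 0.390 in the 21 beta exons (0.283 to 0.493), 0.583 in the 6 gamma A and B exons (0.455 to 0.733) and 0.510 in the 3 gamma C-type exons (0.349 to 0.721). The bare alpha exons were thus among the richest in CpG. Related exons also share sequence, which bears on how reads can be placed. Of all words of 32 bases, those found once in the mm9 assembly made up a median of 79.4% in the variable alpha exons (76.3 to 82.6%), 88.7% in the beta exons (74.2 to 100%) and 93.4% in the gamma A and B exons (77.4 to 99.7%). All words of the 5 C-type exons occurred once. How reads with several matches were treated is not stated in the sources used here. The 23 exons with a mark at either day had a median of 92.4% of such words (77.4 to 100%), and the 17 with none had a median of 81.0% (74.2 to 100%). Within the beta cluster the medians were 91.8% for 12 marked exons and 83.0% for 9 unmarked ones. The part of read placement in the absence of marks was not tested.

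VDR was not called anywhere in the locus, in either arm. All 4 lists had 0 peaks between the first and the last member, with the nearest peak 147 kb away in each list. These lists are short, with 1618 and 1333 peaks with 1,25D3 and 291 and 342 with vehicle. RXR had 2 peaks in replicate 1 and 1 in replicate 2 with 1,25D3, against 1 in replicate 1 and 0 in replicate 2 with vehicle. The mean difference of 1 peak had p = 0.667 in an exact two-sided permutation test of 2 libraries against 2, which cannot give p below 0.33.

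All RXR peaks in the locus lay in introns between the shared gamma exons. One was called in both replicates with 1,25D3 and in neither vehicle list, 4.47 kb past the start of the first shared exon (37989142 to 37989410 in replicate 1, 37989118 to 37989432 in replicate 2), with scores of 7.7 and 8.7 that ranked 5366 of 10333 and 4034 of 7635. The other was called in replicate 1 of both arms, 10.4 kb past that exon (37995108 to 37995376 with 1,25D3, 37995131 to 37995421 with vehicle), with scores of 7.5 and 7.8. Each overlapped 6 histone marks at day 35, among them H3K4me1, H3K27Ac, H4K5Ac and H3K36me3. RXR lists were longer with 1,25D3 (10333 and 7635 peaks) than with vehicle (6875 and 4093), and these peaks stand just below the middle of their lists by score.

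Protocadherins outside the clusters have their own loci. Of 12, 7 had H3K4me2 on the first exon at day 35 (autosomal background 59.5%) and 5 at day 3 (55.9%). H3K27Ac was on 3 at each day (54% and 55.6%), and H3K4me3 on 1 at day 35 (37.2%) and 2 at day 3 (43.4%). H3K9me3 was on 5 at each day, or 41.7%, against a background of 2.62% and 6.2%. In the clusters H3K9me3 was on 22.5% and 32.5% of first exons, so by this count H3K9me3 above the background was not particular to the clusters. Equal windows around the start were not counted for these 12 genes, and the part of exon length was not tested. Pcdh18 was the most marked, with all 6 active marks, H3K36me3 and H4K20me1 at both days and H3K9me3 at day 3 only. Pcdh7 differed between the days in 3 marks (H3K4me2 and H3K9Ac at day 35 only, H3K4me1 at day 3 only), as did Pcdh19 (H3K9me3 at day 35 only, H3K4me3 and H3K36me3 at day 3 only). The 361 autosomal genes with a Zfp symbol are zinc-finger genes, some of whose families lie in H3K9me3-rich clusters. Of them, 18 had H3K9me3 on the first exon at day 35 (4.99%, background 2.62%) and 19 at day 3 (5.26%, background 6.2%). Their share at day 3 was thus not above that of all genes.

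Genes for factors known to act at these clusters were marked as active. They include CTCF and the cohesin subunits, which loop enhancers to first exons, and SETDB1, which deposits H3K9me3. Of 20, 19 had H3K27Ac at day 35 (autosomal background 54%) and 19 at day 3 (55.6%). H3K4me3 was on 13 at day 35 (37.2%) and 17 at day 3 (43.4%), 4 of them at day 3 only. H3K9me3 was on 1 at each day (2.62% and 6.2%), Smc1a, which lies on the X chromosome and so outside the autosomal background. Setdb1 itself had H3K4me2 at day 35 only and H3K4me3 at day 3 only. Dnmt3a, a DNA methyltransferase, had H3K4me1 and H3K4me2 at day 3 only and no acetyl mark on the first exon at either day. Over all autosomal genes H3K4me3 was also called at day 3 and not at day 35 more often (7.17%) than the other way round (1.03%).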

How the data were processed

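Regions had been called for each library separately, and each deposited line holds a position and the authors' score; how the score is scaled is not stated. Per the submitters' processing notes the tools were Bowtie and HOMER and the build mm9; the sources used here do not give versions, thresholds or depths. The 2 input samples were not used here. Lists were checked against the NCBIM37 assembly (0 regions beyond a chromosome end), and coordinates are 1-based.

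Members, gene lists and alternatives were chosen with earlier results of these data known. A single first exon per gene (that of the longest coding sequence) had been planned; since GENCODE M1 merges alpha and gamma genes, every distinct first exon was used, 1 per beta gene. The 19 alpha and gamma exons were named by matching the span from exon start to cluster end with RefSeq gene lengths (14 exact, largest difference 297 bp, next name at least 2395 bp off). Named in any case were C-type exons, exons with H3K4me3 or 2 acetyl marks, exons with H3K9me3 at 1 day, the widest overlaps, neighbours, and listed genes that differed in 2 marks. Coverage was counted on merged regions in Python 3.11.15 with numpy 2.4.6 and tested on simulated intervals. Labels call the factor libraries biological replicates, and the p-value given comes from regrouping these libraries between the arms. Alternatives are given in the closing section.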

Additional observations from a re-analysis of the deposited data

How the results depend on the processing

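The order of the days turned round in 2 cases: H4K5Ac was on 2 first exons at day 35 and 3 at day 3 when at least 50% of the exon had to be covered, and H3K9Ac covered 2.97% of the locus at day 35 and 3.1% at day 3 in the higher-scoring 50% of each list. The days became equal for H3K4me1, H3K27Ac and H3K9Ac under that coverage rule, for H3K4me1, H3K4me3 and H4K5Ac in the higher-scoring 50%, and for H3K4me3 with lists of equal length. Requiring that regions cover at least 50% of a first exon (day 35, then day 3 where both moved) left H3K4me1 on 3 exons at day 35, H3K4me2 on 2 and 1, H3K4me3 on 0 and 1, H3K27Ac on 3 and 3, H3K9Ac on 1 and 1, and H3K36me3 on 6 at day 35. The higher-scoring 50% of each list gave H3K4me1 on 3 exons at day 35, H3K4me2 on 9 and 2, H3K4me3 on 1 at day 3, H3K27Ac on 4 and 3, H3K9Ac on 6 and 5, H4K5Ac on 3 and 3, and H3K36me3 on 6 at day 35. It left 0 RXR peaks in the locus, a difference of 0. With lists of equal length H3K4me3 was on 1 exon at day 3. With 1 first exon for each of the 24 annotated genes, an alternative chosen after seeing the data, H3K4me3 was on 0 at day 35, H3K36me3 on 1 at day 3, H4K20me1 on 1 and 1, and H3K9me3 on 3 at day 35. As shares of 24 against 40, the other counts of that alternative stayed within 1.5 times. Under the other alternatives the counts not named stayed within 1.5 times of those reported.

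A window of 1 kb around the start and the longest exon moved none of the 18 counts by over 1.5 times, and no alternative so moved the 18 percentages of the locus covered. For RXR, the replicate block (differences within replicate numbers, exact sign-flip test, smallest p 0.5) gave a mean difference of 1, and leaving out either replicate gave 1 and 1. Small regions on beta exons rank low in their lists, and depth is unknown, so their absence from a list at either day is not evidence that the mark was missing.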
